A study of Mus musculus with 16 samples.

Results

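Chemokines and their receptors were examined in left ventricles of male C57BL/6 mice with and without the M2 isoform of pyruvate kinase (PKM2). The genes were chosen by symbol. They are every numbered Ccl, Cxcl, Ccr, Cxcr and Ackr gene of the deposited table, together with Cx3cl1, Cx3cr1, Xcl1, Xcr1 and Ccrl2. They numbered 57 of the 55492 genes listed, with 34 ligands and 23 receptors. PKM2-/- mice lack Pkm exon 10, which floxed mice lost through a Cre driven by a CMV promoter, and the deletion is global because it passed through the germ line before the Cre allele was bred out. Their controls were PKM2fl/fl mice, which carry the floxed exon without Cre, and mice of both genotypes were 8 to 12 weeks old. Hearts were taken from mice without surgery (baseline, 2 per genotype), 3 days after sham surgery (3 per genotype) and 3 days after myocardial infarction (MI, 3 per genotype). MI was made by permanent ligation of the left anterior descending artery, which sham mice were spared. The comparisons ask which chemokine genes the infarcted heart expresses, whether surgery alone changes them, and whether the loss of PKM2 does.

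Chemokines are small secreted proteins that guide leukocytes along gradients through G protein-coupled receptors on the cell surface. The receptors divide the work by cell type. CXCR2 brings neutrophils, CCR2 brings inflammatory monocytes, CCR1 acts on monocytes and macrophages, and CXCR3 on activated T and NK cells, while the atypical (ACKR) receptors bind chemokines without G protein signalling and remove or transport them. In the infarcted heart, neutrophils arrive first and Ly6C-high monocytes follow, and both clear dead muscle before a scar forms.

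Libraries held 20623769 to 71855101 reads on genes, and values are given as normalized counts, that is, reads on a gene divided by the library's size factor. Pkm is counted as a whole gene, so its level does not show the loss of an exon. It had 7779 to 12076 normalized counts in PKM2fl/fl and 10120 to 16113 in PKM2-/- libraries. Cardiac muscle genes were abundant in each library, with Myh6, the alpha myosin heavy chain, between 46178 and 451806. Of the 5 T cell genes, Cd3d, Cd3e, Cd3g and Cd8a stayed at or under 15.5 normalized counts in each of the 16 libraries. The remaining T cell gene, Cd4, had 11.2 to 30.6. The NK cell genes stayed at or under 23.6. Among neutrophil genes, Ly6g and Mpo were at or under 9.65. Some libraries stood apart from their groups. The PKM2fl/fl sham library of replicate 3 was near baseline in neutrophil genes (36.3 normalized counts of the calgranulin gene S100a8, against 327 and 312). The PKM2-/- sham library of replicate 3 was high in Ccl2 (205, against 41.8 and 28.7). The PKM2fl/fl MI library of replicate 3 had 46178 normalized counts of Myh6, against 137875 and 134794 in the other libraries of its group. The PKM2-/- MI library of replicate 1 was high in erythroid genes (a sum of 21438, against 7591 and 5991). Summed atrial genes varied within every operated group. They had 317 to 1277 normalized counts in PKM2fl/fl sham, 353 to 1487 in PKM2-/- sham, 145 to 592 in PKM2fl/fl MI and 143 to 848 in PKM2-/- MI hearts. At baseline they had 120 to 138 in PKM2fl/fl and 211 to 411 in PKM2-/- hearts.

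Of the 57 genes, 41 had a mean of at least 10 normalized counts over the 16 libraries and were tested, 25 ligands and 16 receptors. The other 16 had means of at most 8.29. They were the ligands Ccl1, Ccl17, Ccl19, Ccl20, Ccl22, Ccl26, Cxcl11, Cxcl15 and Xcl1 and the receptors Ccr3, Ccr4, Ccr6, Ccr8, Cxcr1, Cxcr3 and Xcr1. Their highest values in any library were 23.8 for Ccr3, the eosinophil receptor, and 23.2 for Ccl22, both after MI. limma was used to compare groups, after 1 was added to each normalized count and the log2 taken. A gene was called when its Benjamini-Hochberg adjusted p over all 20576 genes tested was under 0.05 and its change at least 2-fold.

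**Figure D1:**
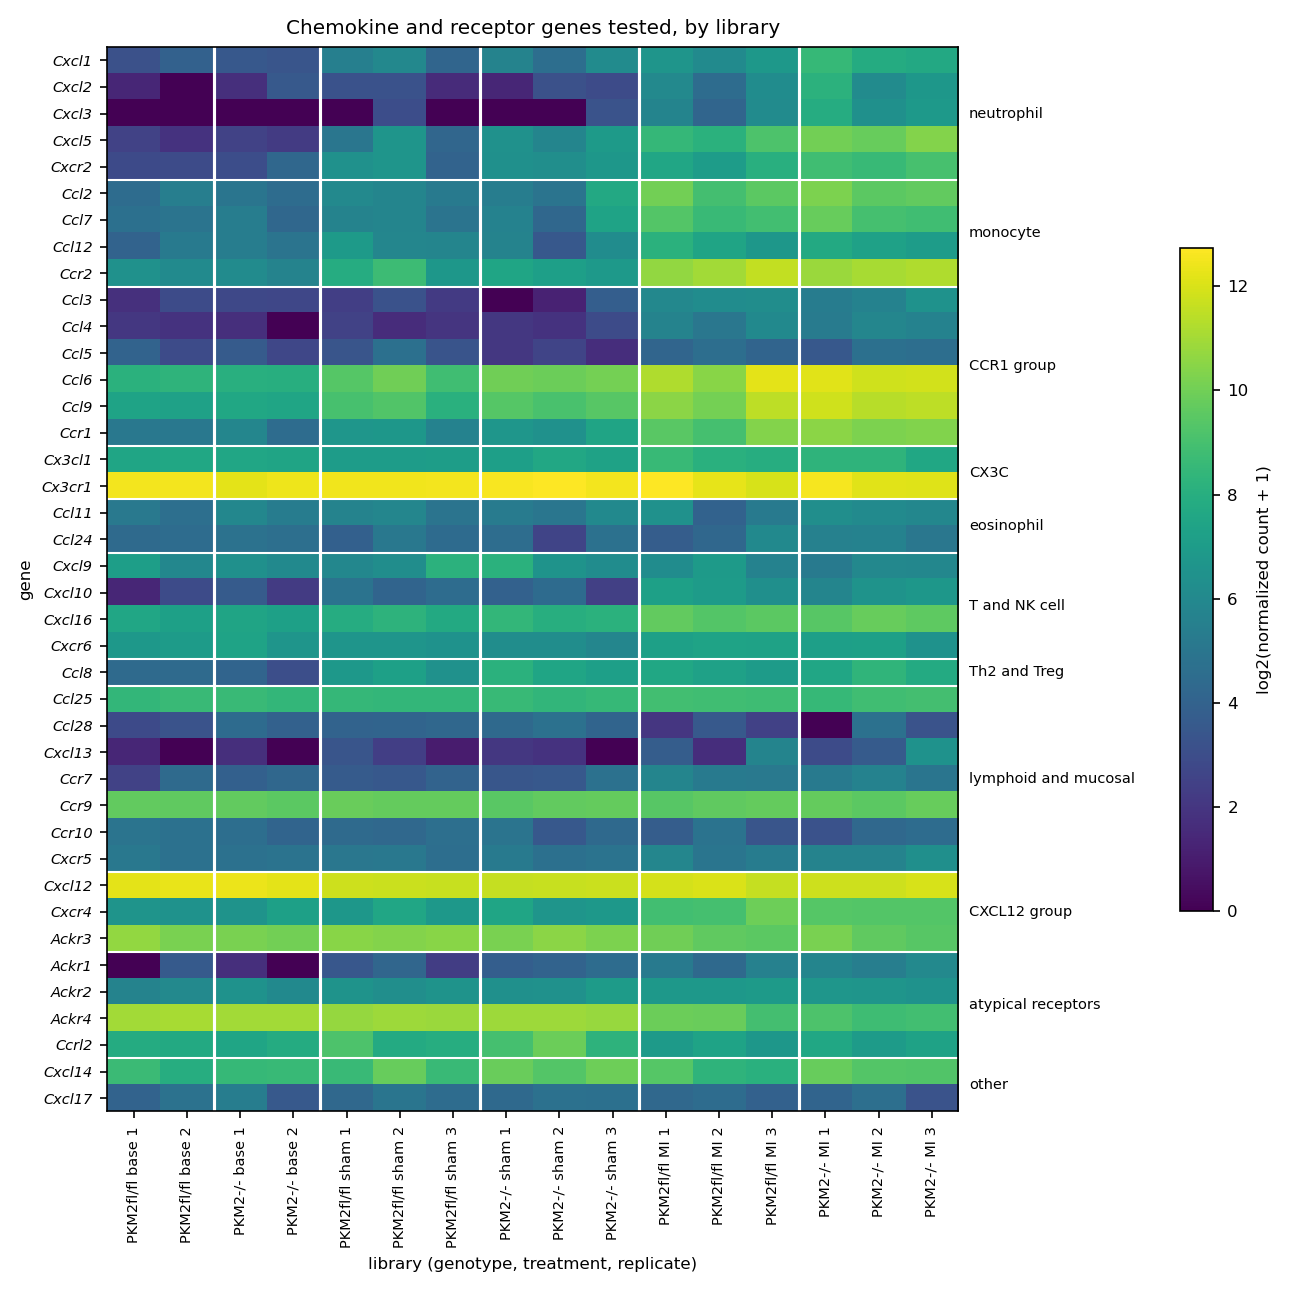
Heat map of 40 of the genes tested, in rows grouped by the cell they recruit, over the 16 libraries in columns. Colour gives log2(normalized count + 1), and white lines part the groups of libraries and of genes. The neutrophil, monocyte and CCR1 groups brighten in the MI columns, while Cx3cr1 and Cxcl12 are bright in every column.

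MI was followed by a rise of the genes that recruit neutrophils, monocytes and macrophages in both genotypes. In PKM2fl/fl hearts, 19 of the 41 genes were higher after MI than after sham (46.3%, where 12.4% of all genes tested were) and 2 were lower (4.88%, where 11.1% were). In PKM2-/- hearts, 22 were higher (53.7%, background 14.5%) and 2 lower (4.88%, background 14.3%). The share of all genes tested that a comparison called is given as the background throughout, but not for the alternative analyses. The median log2 fold change of the 41 was 1.26 in PKM2fl/fl and 1.45 in PKM2-/- hearts, beside -0.00254 and 0.0105 over all genes tested. Of the genes that rose, 18 did so in both genotypes, 12 ligands and 6 receptors. Cx3cl1 was called in PKM2fl/fl hearts alone, and Ccl5, Ccl12, Cxcl13 and Ccl24 in PKM2-/- hearts alone, but no difference between the genotypes in the response to MI was called. Both genes that fell, Ackr4 and Ccrl2, did so in both genotypes. The call held in each of the 14 alternative analyses for 15 of the 19 genes that rose in PKM2fl/fl hearts and 19 of the 22 in PKM2-/- hearts. In PKM2fl/fl hearts it was lost in at least 1 for Cxcl1, Cxcl3, Cxcr2, Cx3cl1, Ackr4 and Ccrl2, and in PKM2-/- hearts for Ccl24, Ccr7 and Cxcl13.

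**Figure D2:**
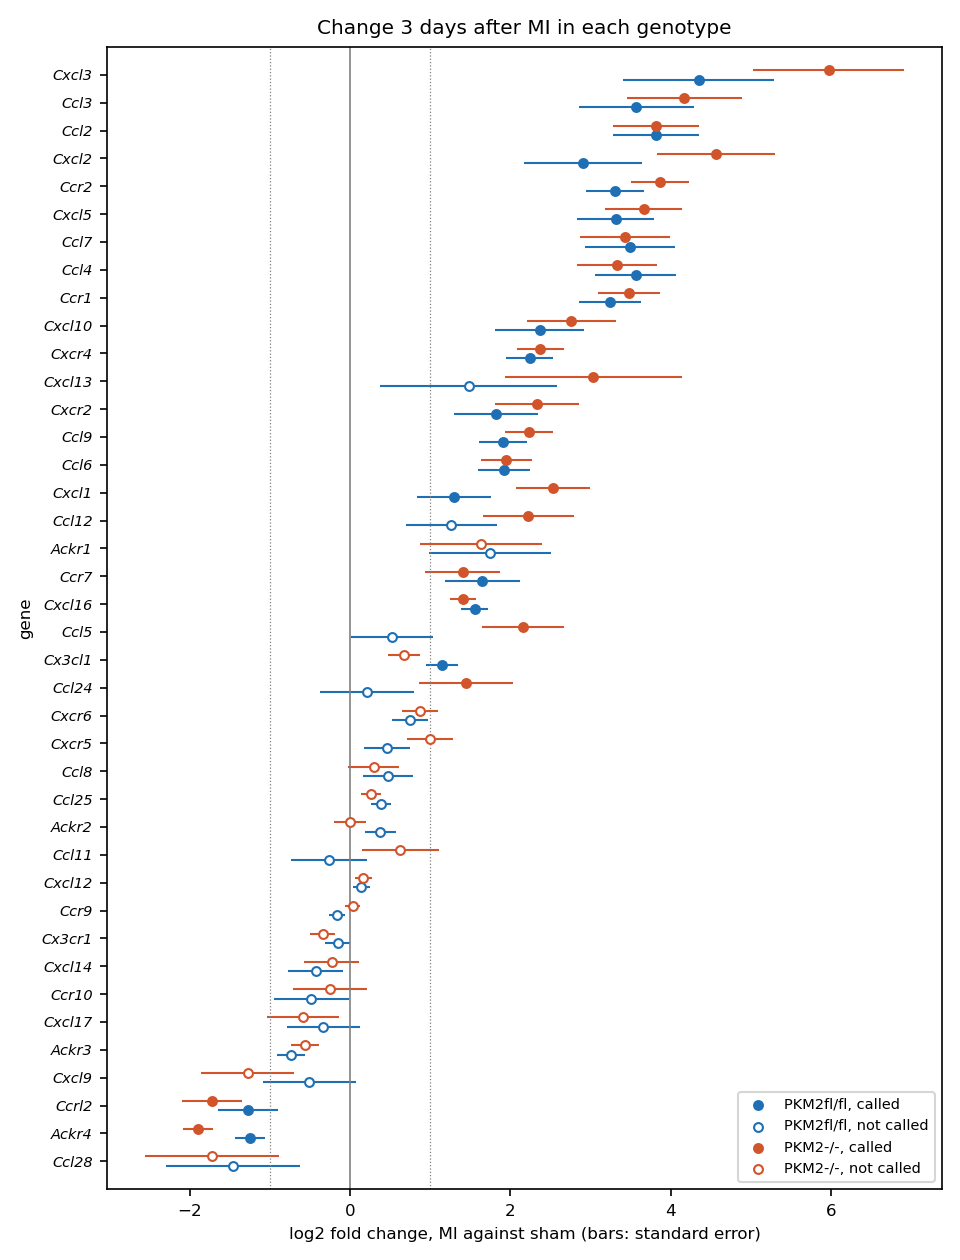
Log2 fold change between MI and sham hearts for 40 of the genes tested (x axis), in PKM2fl/fl (blue) and PKM2-/- hearts (orange), with standard errors as bars and dotted lines at a 2-fold change. Filled points passed the test and the fold threshold. Cxcl3 had the largest change, 4.35 in PKM2fl/fl and 5.97 in PKM2-/- hearts.

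Cell markers moved beside the chemokines. In bulk tissue, fewer cells of a type and less RNA per cell cannot be told apart. All 6 monocyte and recruited macrophage genes and all 5 macrophage genes rose after MI in both genotypes, with the summed level of the first list between 1922 and 4667 normalized counts in the 6 sham hearts and between 46782 and 85561 in the 6 MI hearts. Of the 5 neutrophil genes tested, Csf3r and Mmp8 rose in both genotypes. The eosinophil and mast cell list had 1 gene higher, Siglecf, in both genotypes, and 2 lower in PKM2fl/fl and 1 in PKM2-/- hearts. The eosinophil granule genes Epx and Prg2 were at most 2.89 in every library. Cardiac muscle genes fell, 5 of 6 in PKM2fl/fl and all 6 in PKM2-/- hearts. Of the 5 fibroblast genes, the collagen genes Col1a1 and Col1a2 rose, and of the 4 endothelial genes 0 were called. Resident macrophage genes had 0 calls among 5 in PKM2fl/fl and 1 higher and 1 lower in PKM2-/- hearts, and 2 of 4 B cell genes rose in both. Their part in the chemokine values was not tested.

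The ligands of CXCR2, the receptor that draws neutrophils out of blood, rose together. Cxcl5 had 30.6, 99.6 and 17.6 normalized counts in the 3 PKM2fl/fl sham hearts and 360, 278 and 577 after MI. In PKM2-/- hearts it had 85.2, 54.9 and 124 after sham and 1044, 885 and 1320 after MI. The MI hearts lay above all sham hearts of the same genotype, and the change was 9.94-fold in PKM2fl/fl (log2 3.31 ± 0.48 SE, adjusted p = 4.81e-05 by limma) and 12.7-fold in PKM2-/- hearts (3.66 ± 0.48, adjusted p = 1.29e-05). Cxcl1, the mouse chemokine KC, had 44.7, 61.6 and 16.7 normalized counts in PKM2fl/fl sham hearts and 98.9, 66.4 and 109 after MI. In PKM2-/- hearts it went from 51.4, 23.5 and 70.1 to 370, 229 and 205. The groups did not overlap in either genotype, although in PKM2fl/fl hearts the highest sham heart was close to the lowest MI heart. The change was 2.45-fold in PKM2fl/fl (log2 1.29 ± 0.46 SE, adjusted p = 0.029 by limma) and 5.78-fold in PKM2-/- hearts (2.53 ± 0.46, adjusted p = 0.000245). Without the PKM2fl/fl sham library of replicate 3, which had the lowest Cxcl1 of its group, the change in PKM2fl/fl hearts was 0.76 on the log2 scale and not called. It was also not called without the MI libraries of replicate 1 or 3 (1.22 and 1.15).

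Cxcl2 and Cxcl3, which encode MIP-2 and the related DCIP-1, were near 0 before MI. Cxcl2 had 8.23, 8.21 and 1.96 normalized counts in PKM2fl/fl sham hearts and 63.4, 21.4 and 72.2 after MI. The PKM2-/- hearts had 1.61, 7.84 and 6.47 after sham and 296, 69.2 and 108 after MI. Every MI heart was above every sham heart of its genotype, a log2 fold change of 2.91 ± 0.74 SE in PKM2fl/fl (adjusted p = 0.00398 by limma) and 4.56 ± 0.74 in PKM2-/- hearts (adjusted p = 8.29e-05). Cxcl3 was at 0 in the 4 baseline hearts and in 4 of the 6 sham hearts, and at 7.19 and 8.63 in the others. After MI it had 52.6, 17.1 and 70.4 normalized counts in PKM2fl/fl and 236, 84.5 and 117 in PKM2-/- hearts. On the log2(value + 1) scale, which understates the change of low genes, it rose by 4.35 ± 0.94 SE (adjusted p = 0.00127 by limma) and 5.97 ± 0.94 (adjusted p = 6.7e-05). DESeq2 on the recovered reads did not call the first of these (adjusted p = 0.103). Cxcl15, the lung chemokine lungkine, had at most 2.89 normalized counts in any library.

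Cxcr2 itself was low at baseline (6.28 and 6.63 normalized counts in PKM2fl/fl, 6.99 and 18.3 in PKM2-/- hearts). It had 87, 98.5 and 15.7 in PKM2fl/fl sham hearts and 185, 131 and 259 after MI, and 83.6, 77.1 and 108 in PKM2-/- sham hearts and 459, 384 and 522 after MI. The receptor rose 3.52-fold in PKM2fl/fl (adjusted p = 0.00901 by limma) and 5.05-fold in PKM2-/- hearts (adjusted p = 0.00135). Without the PKM2fl/fl sham library of replicate 3 the change in that genotype was 0.99 on the log2 scale, just under 2-fold. That library was also low in neutrophil genes. Cxcr1, the other CXC receptor of neutrophils, had at most 10.1 normalized counts.

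**Figure D3:**
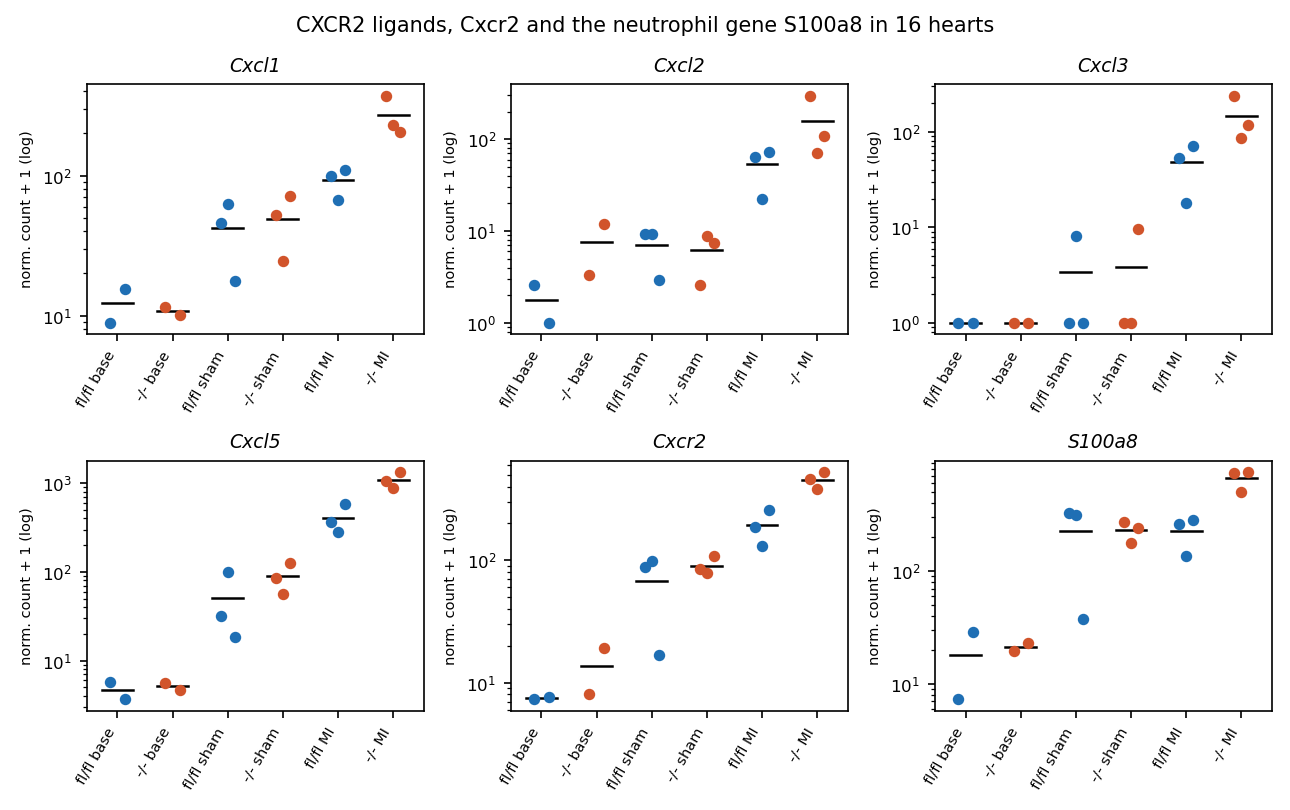
Normalized count + 1 on a log axis for Cxcl1, Cxcl2, Cxcl3, Cxcl5, Cxcr2 and the neutrophil gene S100a8 in the 6 groups, with 1 point per heart and a black line at the group mean (blue PKM2fl/fl, orange PKM2-/-). The 3 PKM2-/- MI hearts lie above the 3 PKM2fl/fl MI hearts for Cxcl1, Cxcl3, Cxcl5, Cxcr2 and S100a8, and the groups overlap for Cxcl2.

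The genes of the CXCR2 ligands lie side by side. Cxcl5, Cxcl3, Cxcl15, Cxcl1 and Cxcl2 run from 90759298 to 90905938 on chromosome 5 (GRCm38, the build of mm10), with gaps of under 250 kb between neighbours, and all 4 that were tested rose in both genotypes. Cxcl1, Cxcl2 and Cxcl3 are shown here because their promoters share the same 11-base run. Bases upstream of the RefSeq gene start are printed 5' to 3' on the forward strand of GRCm38.p6, at chr5:90891125-90891244 for Cxcl1, chr5:90903779-90903898 for Cxcl2 and chr5:90785981-90786100 for Cxcl3. Capitals mark the match to the NF-kappaB consensus, the site of the transcription factor family that switches on many inflammatory genes.

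Cxcl1: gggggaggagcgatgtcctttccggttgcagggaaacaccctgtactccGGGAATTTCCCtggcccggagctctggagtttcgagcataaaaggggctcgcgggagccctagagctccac

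Cxcl2: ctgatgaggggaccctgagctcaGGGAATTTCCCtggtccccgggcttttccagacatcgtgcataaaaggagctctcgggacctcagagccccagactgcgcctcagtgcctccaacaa

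Cxcl3: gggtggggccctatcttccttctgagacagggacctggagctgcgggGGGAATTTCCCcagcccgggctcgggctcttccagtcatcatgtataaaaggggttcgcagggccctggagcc

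The shared run begins 71 bases before the start of Cxcl1, 97 before that of Cxcl2 and 73 before that of Cxcl3. It holds a match on each strand that overlap by all but 1 base at either end. Promoters of 42 of the 57 genes are in the RefSeq table, and 10 of these genes (23.8%) have a match to the consensus on either strand within 250 bases upstream, beside 4.46% of 27025 genes in the table. The 10 are Cxcl1, Cxcl2, Cxcl3, Cxcl10, Ccl9, Ccl20, Ccr3, Ccr6, Ackr2 and Ccrl2. Of these, Cxcl1, Cxcl2, Cxcl3, Cxcl10 and Ccl9 rose after MI in both genotypes, Ccrl2 fell, Ackr2 was not called, and Ccl20, Ccr3 and Ccr6 were under the minimum mean. A match is a description of the letters and not of binding.

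Ccl2 and Ccl7, ligands of the monocyte receptor CCR2, rose in both genotypes. Ccl2, which encodes MCP-1, had 64, 55.4 and 35.8 normalized counts in PKM2fl/fl sham hearts and 1054, 483 and 742 after MI. It had 41.8, 28.7 and 205 in PKM2-/- sham hearts and 1188, 744 and 824 after MI. Its change was 14.1-fold in both genotypes (log2 3.82 ± 0.54 SE, adjusted p = 3.56e-05 by limma, and 3.81 ± 0.54, adjusted p = 2.37e-05). Ccl7, which encodes MCP-3, went from 51.1, 54.4 and 28.9 to 642, 396 and 480 in PKM2fl/fl hearts and from 49.8, 18.3 and 165 to 867, 507 and 457 in PKM2-/- hearts. The MI and sham hearts did not overlap, with changes of 11.2-fold (adjusted p = 0.000111 by limma) and 10.8-fold (adjusted p = 9.34e-05). The highest sham value of both genes was that of the PKM2-/- library of replicate 3. Without it the change in PKM2-/- hearts reached 4.66 on the log2 scale for Ccl2 and 4.23 for Ccl7.

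Ccl12, the mouse ligand MCP-5, followed less closely. It had 120, 57.5 and 54.4 normalized counts in PKM2fl/fl sham hearts and 281, 176 and 108 after MI, so that the groups overlapped (log2 1.26 ± 0.57 SE, adjusted p = 0.0782 by limma). In PKM2-/- hearts it rose from 51.4, 10.4 and 71.2 to 216, 155 and 130 (4.67-fold, adjusted p = 0.00367 by limma). The difference between these changes was not called (log2 0.96, adjusted p = 0.772 by limma). The receptor gene Ccr2 had 238, 419 and 105 normalized counts in PKM2fl/fl sham hearts and 1662, 2028 and 3024 after MI. It had 180, 148 and 113 after sham and 1820, 2176 and 2421 after MI in PKM2-/- hearts. It rose 9.87-fold in PKM2fl/fl (log2 3.30 ± 0.36 SE, adjusted p = 4.66e-06 by limma) and 14.6-fold in PKM2-/- hearts (3.87 ± 0.36, adjusted p = 7.4e-07).

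**Figure D4:**
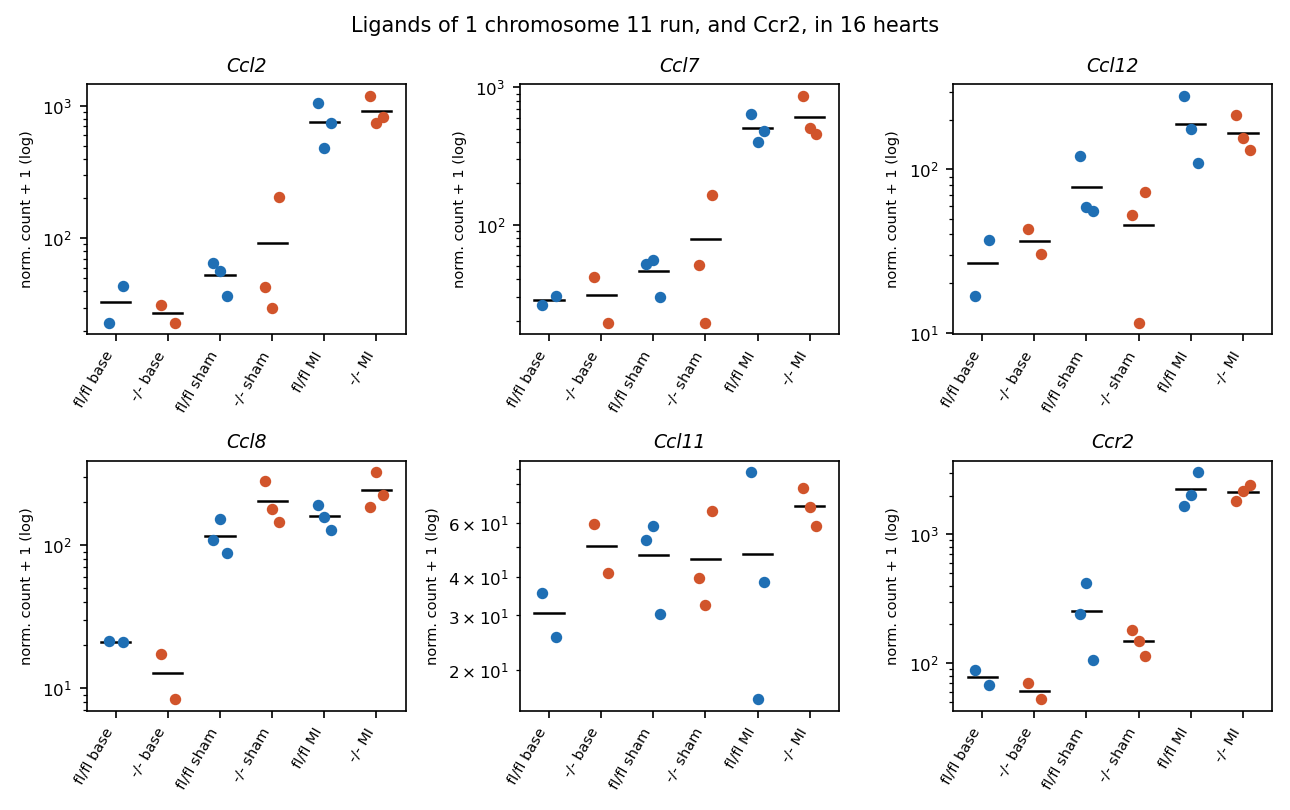
Normalized count + 1 on a log axis for the 5 tested ligands of a chromosome 11 run and for Ccr2 in the 6 groups, with 1 point per heart and a black line at the group mean (blue PKM2fl/fl, orange PKM2-/-). Ccl2, Ccl7 and Ccr2 step up between sham and MI, Ccl8 steps up between baseline and sham, and Ccl11 does neither.

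The genes of this run, Ccl2, Ccl7, Ccl11, Ccl12, Ccl8 and Ccl1, lie from 82035577 to 82179812 on chromosome 11 (GRCm38) and did not move as a block. Of the 5 tested, Ccl2 and Ccl7 rose after MI in both genotypes. Ccl8, a ligand of CCR8 in the mouse, was already high after sham. Ccl11, the eosinophil ligand eotaxin, had 29.4 to 64.7 normalized counts in the 6 sham hearts and 15 to 86.6 in the 6 MI hearts, and was called in neither genotype (log2 -0.27 ± 0.48 SE, adjusted p = 0.67, and 0.63 ± 0.48, adjusted p = 0.279 by limma). Farther along the chromosome, from 83525778 to 83664683, all 4 of Ccl9, Ccl6, Ccl3 and Ccl4 rose in both genotypes, and the remaining gene of that run is Ccl5.

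Ligands that act on macrophages and T cells rose in both genotypes with the exception of Ccl5 in PKM2fl/fl hearts. Ccl6, a macrophage ligand of CCR1, had 677, 1007 and 452 normalized counts in PKM2fl/fl sham hearts and 2428, 1443 and 4761 after MI. It had 1021, 948 and 1096 in PKM2-/- sham hearts and 4574, 3598 and 3735 after MI. Its change was 3.78-fold (adjusted p = 0.00017 by limma) and 3.87-fold (adjusted p = 0.000107). Ccl9, another CCR1 ligand, went from 515, 615 and 271 to 1469, 1095 and 2823 in PKM2fl/fl hearts and from 670, 551 and 680 to 3568, 2619 and 2802 in PKM2-/- hearts. It rose 3.75-fold (adjusted p = 9.68e-05 by limma) and 4.7-fold (adjusted p = 1.61e-05). For both ligands the PKM2fl/fl MI heart of replicate 3, the heart lowest in Myh6 of its group, was the highest of its group.

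Ccl3 and Ccl4, which encode MIP-1 alpha and MIP-1 beta, were low before MI. Ccl3 had 4.11, 8.21 and 3.43 normalized counts in PKM2fl/fl sham hearts and 61.8, 72.9 and 74.1 after MI. It went from 0, 1.31 and 12.9 to 40.5, 48.9 and 89.4 in PKM2-/- hearts. It rose 11.9-fold (log2 3.57 ± 0.72 SE, adjusted p = 0.000724 by limma) and 18-fold (4.17 ± 0.72, adjusted p = 0.000151). Ccl4 went from 4.7, 2.05 and 2.94 to 51, 32.1 and 64.9 in PKM2fl/fl and from 3.22, 2.61 and 6.47 to 38.9, 57.2 and 49 in PKM2-/- hearts, with changes of 11.8-fold (adjusted p = 3.77e-05 by limma) and 10.1-fold (adjusted p = 4.67e-05). Ccl5, which encodes RANTES, a product of T cells and platelets, stayed low. It had 9.4, 24.6 and 8.82 normalized counts in PKM2fl/fl sham and 17, 23.6 and 16.5 in MI hearts, which overlapped (log2 0.52 ± 0.51 SE, adjusted p = 0.422 by limma). It rose from 3.22, 5.22 and 2.16 to 10.5, 25.4 and 23.1 in PKM2-/- hearts (4.46-fold, adjusted p = 0.00217 by limma). The interaction was 1.64 ± 0.73 on the log2 scale and not called (adjusted p = 0.58 by limma), and it went with lower sham values in PKM2-/- hearts.

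Ccr1, the receptor of several of these ligands, also rose in both genotypes. It had 104, 106 and 50 normalized counts in PKM2fl/fl sham hearts and 703, 513 and 1330 after MI, and 104, 87.5 and 176 in PKM2-/- sham hearts and 1458, 1198 and 1304 after MI. This was a rise of 9.45-fold (log2 3.24 ± 0.39 SE, adjusted p = 9.09e-06 by limma) and 11.1-fold (3.48 ± 0.39, adjusted p = 3.06e-06).

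Genes of the T cell and lymphoid routes were called in part. Among the ligands of CXCR3, the interferon-inducible gene Cxcl10 rose from 28.2, 16.4 and 21.6 normalized counts in PKM2fl/fl sham hearts to 151, 128 and 79.6 after MI and from 14.5, 20.9 and 4.32 to 55.1, 91.5 and 107 in PKM2-/- hearts. The changes were 5.16-fold (adjusted p = 0.0023 by limma) and 6.77-fold (adjusted p = 0.000565). Its neighbour Cxcl9 was not called. It had 59.3, 74.9 and 286 normalized counts in PKM2fl/fl sham hearts and 72.7, 122 and 49.4 after MI, and 277, 91.4 and 73.4 in PKM2-/- sham hearts and 35.7, 61 and 57.7 after MI (log2 -0.51 ± 0.58 SE, adjusted p = 0.487, and -1.28 ± 0.58, adjusted p = 0.0709 by limma). Cxcl11 was at most 6.43 and Cxcr3 at most 11.5 normalized counts in any library. Cxcl16, a membrane-bound ligand that also takes up oxidised lipoprotein, had 240, 305 and 211 normalized counts in PKM2fl/fl sham hearts and 832, 635 and 744 after MI. It had 349, 251 and 283 after sham and 688, 878 and 772 after MI in PKM2-/- hearts. It rose 2.93-fold and 2.66-fold, with standard errors of 0.16 on the log2 scale (adjusted p = 3.25e-06 and 4.6e-06 by limma). Its receptor gene Cxcr6 passed the adjusted p in both genotypes without reaching 2-fold (log2 0.75, adjusted p = 0.0105, and 0.87, adjusted p = 0.00339 by limma).

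Ccr7, the receptor that takes dendritic cells and T cells to lymph nodes, had 11.8, 10.3 and 15.7 normalized counts in PKM2fl/fl sham hearts and 54.1, 36.4 and 34.8 after MI. It had 9.65, 10.4 and 25.9 in PKM2-/- sham hearts and 37.3, 49.5 and 30.3 after MI. It rose 3.13-fold (adjusted p = 0.00831 by limma) and 2.64-fold (adjusted p = 0.0182), and the second call was lost without either of the sham libraries of replicate 1 or 2 or the MI library of replicate 2. Its ligand Ccl19 was at 0 in 15 of the 16 libraries, and Ccl21a lies outside the selected symbols. Cxcl13, the B cell ligand of CXCR5, was spread widely within MI groups, with 12.4, 2.14 and 53 normalized counts in PKM2fl/fl and 6.49, 11.4 and 89.4 in PKM2-/- hearts. It was called in PKM2-/- hearts alone (8.21-fold, adjusted p = 0.0287 by limma), and the call was lost without the MI library of replicate 3 (log2 1.96) or without the sham library of replicate 3 (2.38). Ccl24, the eosinophil ligand eotaxin-2, had 22.5, 5.22 and 25.9 normalized counts in PKM2-/- sham hearts and 47.8, 48.9 and 31.7 after MI (2.73-fold, adjusted p = 0.0469 by limma). It kept that call in 5 of 14 alternatives. Ccl28 and Ccr10, the mucosal and skin pair, were not called, with 0 to 26.1 and 8.11 to 29 normalized counts over the 16 libraries.

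In the fractalkine pair, the ligand rose in PKM2fl/fl hearts and the receptor was not called. Cx3cl1, the membrane-tethered ligand fractalkine of endothelium, had 130, 132 and 137 normalized counts in PKM2fl/fl sham hearts and 383, 272 and 248 after MI, a 2.21-fold rise (adjusted p = 0.000233 by limma). The PKM2-/- hearts had 145, 197 and 164 after sham and 315, 316 and 190 after MI, which overlapped, and Cx3cl1 passed the adjusted p there without reaching 2-fold (log2 0.67 ± 0.20 SE, adjusted p = 0.00992 by limma). Cx3cr1, the receptor of patrolling monocytes and resident macrophages, had 4025 to 6865 normalized counts in every library. It was not called in either genotype (log2 -0.15 ± 0.16 SE, adjusted p = 0.438, and -0.34 ± 0.16, adjusted p = 0.0754 by limma), while all 5 macrophage genes rose.

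Cxcl12, the ligand SDF-1 that holds progenitor cells in their niches, was near its sham level after MI. It had 3233 to 3533 normalized counts in PKM2fl/fl sham and 3190 to 4143 in PKM2fl/fl MI hearts, and 3183 to 3414 in PKM2-/- sham and 3496 to 4015 in PKM2-/- MI hearts (log2 0.14 ± 0.11 SE, adjusted p = 0.289, and 0.16 ± 0.11, adjusted p = 0.204 by limma). Its signalling receptor gene Cxcr4 had 105, 188 and 110 normalized counts in PKM2fl/fl sham hearts and 473, 503 and 984 after MI, and 178, 99.3 and 110 in PKM2-/- sham hearts and 674, 642 and 638 after MI. It rose 4.73-fold (adjusted p = 2.05e-05 by limma) and 5.18-fold (adjusted p = 8.01e-06). Ackr3, which encodes the scavenging receptor of CXCL12, moved the other way by less than 2-fold, from 1415, 1350 and 1434 to 999, 793 and 740 in PKM2fl/fl hearts (log2 -0.74 ± 0.17 SE, adjusted p = 0.00242 by limma) and by -0.56 ± 0.17 in PKM2-/- hearts (adjusted p = 0.0125).

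Of the other atypical receptors, Ackr4 and Ccrl2 fell. Ccrl2, which presents chemerin and carries no signal, had 590, 220 and 246 normalized counts in PKM2fl/fl sham hearts and 124, 168 and 106 after MI. It had 505, 935 and 301 after sham and 189, 128 and 160 after MI in PKM2-/- hearts. The MI hearts lay below the sham hearts (log2 -1.28 ± 0.38 SE, adjusted p = 0.0104, and -1.73 ± 0.38, adjusted p = 0.00111 by limma). The baseline hearts, at 177 to 228, lay below all sham hearts but 1. Without the PKM2fl/fl sham library of replicate 1 the first change was -0.83 and not called. Ackr1, the Duffy receptor of venules and red cells, had 3.92 to 21.6 normalized counts after sham and 19.3 to 62 after MI and was not called (log2 1.74, adjusted p = 0.0688, and 1.64, adjusted p = 0.0792 by limma). Ackr2, which degrades inflammatory CC chemokines, was not called (log2 0.38, adjusted p = 0.123, and -0.0025, adjusted p = 0.992 by limma).

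Ackr4, the scavenger of CCL19 and CCL21, had 1687, 1899 and 1791 normalized counts in PKM2fl/fl sham hearts and 955, 923 and 487 after MI, and 1891, 1888 and 1757 in PKM2-/- sham hearts and 577, 438 and 473 after MI. The log2 change was -1.25 ± 0.19 SE (adjusted p = 7.07e-05 by limma) and -1.90 ± 0.19 (adjusted p = 1.17e-06), and without the PKM2fl/fl MI library of replicate 3 the first was -0.93 and not called. The gene lies inside Acad11, which encodes an acyl-CoA dehydrogenase of mitochondria and runs on the opposite strand, and 20.3% of the Ackr4 exon bases are also exon bases of Acad11 (GENCODE M39, GRCm39). The library kit named in the labels does not mark strand, and the strand setting of the counting is not given in the sources used here, so reads of these genes cannot be told apart. Acad11 had 3208 to 3636 normalized counts in PKM2fl/fl sham hearts, 872 to 1622 in PKM2fl/fl MI hearts and 773 to 984 in PKM2-/- MI hearts. The ratio of Ackr4 to Acad11 stayed between 0.522 and 0.595 over the 16 libraries, while each gene varied about 5-fold (4.97-fold and 5.1-fold).

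Ccl6 lies inside the long noncoding RNA gene E230016K23Rik on the opposite strand. They share 0 exon bases in GENCODE M39, and its normalized counts were 0.957 to 0.989 of those of E230016K23Rik in the 16 libraries. The values of Ccl6 may therefore hold reads that were also given to the other gene, and which of the transcripts they came from was not tested. Of the 57 genes, 22 overlap or lie inside another gene in GENCODE M39. Besides Ackr4, the genes called in both genotypes whose exons share bases with another gene are Ccl3, Ccr7, Cxcl5, Cxcl10 and Cxcl16. Art3, in which Cxcl10 lies, fell from 4486 to 6046 normalized counts in PKM2fl/fl sham to 1375 to 2158 in PKM2fl/fl MI hearts while Cxcl10 rose. Cxcl16 shares 43.2% of its exon bases with Med11 and 41.6% with Zmynd15, and had 2.03 to 5.69 times the normalized counts of Med11. Med11 had 62.7 to 86.2 normalized counts in the 6 sham hearts and 137 to 192 in the 6 MI hearts, and Zmynd15 92.8 to 150 and 184 to 289. Both were thus higher after MI, as Cxcl16 was, and their part in its counts was not tested. Ccr9, the gut-homing receptor of T cells, and its ligand Ccl25 were not called. Ccr9 had 702 to 897 normalized counts in every library, and its ratio to Gm17200, an overlapping gene, was 1.45 to 1.89. Gm17021 overlaps more of its exon bases (18.3%, where Gm17200 has 5.59%), and had 1203 to 1716 normalized counts after sham and 323 to 734 after MI. Ccl25 had 336 to 495 and a ratio of 0.205 to 0.301 to the overlapping gene Elavl1. These overlapping genes are named after their values were seen.

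**Figure D5:**
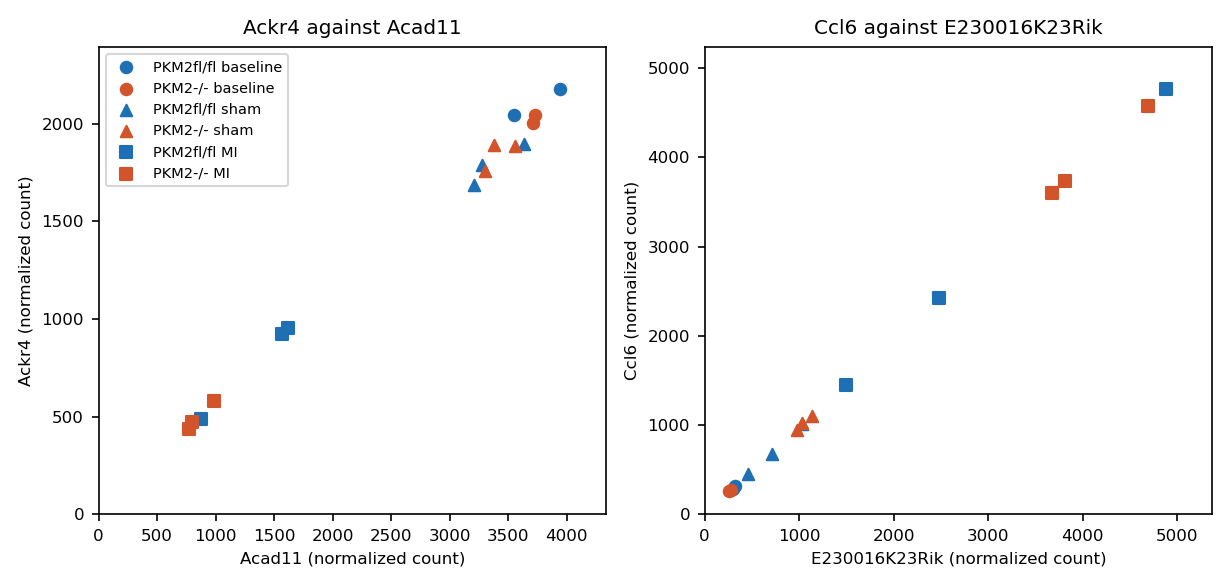
Normalized counts in the 16 libraries of Ackr4 against Acad11 (left) and of Ccl6 against E230016K23Rik (right), on linear axes from 0, with circles for baseline, triangles for sham and squares for MI (blue PKM2fl/fl, orange PKM2-/-). The points of each panel fall close to a line through 0, with ratios of 0.522 to 0.595 and 0.957 to 0.989.

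Levels of different genes can be compared only per length. Normalized counts per kb of the canonical transcript at baseline in PKM2fl/fl hearts were highest for Cx3cr1 (1575), Cxcl12 (879), Ackr3 (458), Ccl25 (412) and Ackr4 (410). Cx3cr1 and Cxcl12 each lay above the next gene in both hearts, and the ranges of Ackr3 (380 to 537), Ccl25 (379 to 446) and Ackr4 (398 to 423) overlapped. After MI in the same genotype they were highest for Ccl6 (1998, range 1002 to 3306), Cx3cr1 (1406, 1071 to 1827), Ccl2 (934, 594 to 1297), Cxcl12 (662, 563 to 731), Ccl7 (627, 491 to 795) and Ccl9 (596, 364 to 938). In that order, the ranges of neighbours overlapped, so no gene differed from the next beyond the spread between hearts, while Cx3cr1 and Ccl6 each lay above Cxcl12, Ccl7 and Ccl9 in every heart. In PKM2-/- MI hearts, Ccl6 was at 2756 normalized counts per kb (2499 to 3176) and lay above Cx3cr1 at 1331 (1169 to 1593) in every heart. Counts are per gene and may include exons outside the canonical transcript, which raises a value per kb. For Ccl25 that transcript has 902 bases, while the gene has 14 merged exons in GENCODE M39. The ranks of Ackr4 and Ccl6 carry the limit that their counts may hold reads of the gene around them.

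Sham surgery alone moved part of the family. In PKM2fl/fl hearts, 2 of the 41 genes were higher after sham than at baseline (4.88%, background 0.16%) and 0 were lower (background 0.00972%). In PKM2-/- hearts, 8 were higher (19.5%, background 2.06%) and 0 lower (background 0.608%). At an unadjusted p under 0.05, 14 and 13 genes were higher and 1 and 2 lower. Of the 20576 genes tested, 1813 in PKM2fl/fl and 3886 in PKM2-/- hearts passed that threshold in either direction. Ccl8 had 20.4 and 19.9 normalized counts in PKM2fl/fl baseline hearts and 109, 151 and 86.8 after sham, and 16.3 and 7.33 in PKM2-/- baseline hearts and 283, 179 and 143 after sham. It rose 5.37-fold (log2 2.42 ± 0.35 SE, adjusted p = 0.0113 by limma) and 16.2-fold (4.02 ± 0.35, adjusted p = 3.57e-05). After MI it had 128 to 190 in PKM2fl/fl and 185 to 323 in PKM2-/- hearts, and the change from sham was not called (log2 0.47 ± 0.32 SE, adjusted p = 0.231, and 0.29 ± 0.32, adjusted p = 0.454 by limma).

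Cxcl5 was the other gene that rose after sham in both genotypes. It had 4.71 and 2.65 normalized counts in PKM2fl/fl baseline hearts and 4.66 and 3.67 in PKM2-/- baseline hearts, below every sham heart (8.53-fold, adjusted p = 0.0301, and 16.4-fold, adjusted p = 0.00121 by limma). The other genes called in PKM2-/- hearts were Ccl6 (3.9-fold), Ccl9 (3.42-fold), Cxcr2 (7.21-fold), Cxcl1 (4.17-fold), Ccr1 (3.27-fold) and Ackr1 (9.5-fold), with adjusted p from 0.00694 to 0.0386 by limma. Ackr1 had 2.33 and 0 normalized counts at baseline and 12.9, 15.7 and 21.6 after sham, so its fold depends on the added 1. It also shares 25.7% of its exon bases with Cadm3 on the same strand. All 5 neutrophil genes tested rose in the same comparison, and their part in it was not tested. Cxcl12 was lower after sham in both genotypes by less than 2-fold (log2 -0.55, adjusted p = 0.0754, and -0.62, adjusted p = 0.00777 by limma). Both counts depend on single libraries and on the method. For PKM2-/- hearts 5 genes were called by edgeR, 5 without the filter on low values and 4 to 7 when a library was left out, the lowest without the baseline library of replicate 2. In PKM2fl/fl hearts DESeq2 called 8. Without the PKM2fl/fl sham library of replicate 3, 6 genes were called there, and without either baseline library or either of the other sham libraries, 0 were.

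Between the genotypes, limma called no gene of the family in any of the 3 conditions. At baseline, 0 of the 41 genes were higher and 0 lower in PKM2-/- hearts (background 0.00972% and 0%). DESeq2 and edgeR also gave 0. An unadjusted p under 0.05 was reached by 1 of the 41 genes and by 748 of all 20576 tested. The 3 genes with the smallest p were Cxcl2, Ccl8 and Ackr2. Cxcl2 had 1.57 and 0 normalized counts in PKM2fl/fl and 2.33 and 11 in PKM2-/- hearts. Ackr2 had 50.2 and 62.4 against 88.6 and 66 (log2 0.44 ± 0.24 SE), and its direction turned to -0.14 when libraries were scaled to their total reads. That scaling shifted the median of all genes in this comparison by -0.58 on the log2 scale.

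After sham, again 0 of the 41 genes were called higher (background 0.00486%) and 0 lower (background 0%). At an unadjusted p under 0.05, 2 genes were higher and 3 lower, and DESeq2 and edgeR gave 0 calls. Over all 20576 genes tested, 2047 had such a p in either direction. Ccl5 was the gene with the smallest p (log2 -1.66 ± 0.51 SE, adjusted p = 0.248 by limma), and its 3 PKM2-/- values lay below its 3 PKM2fl/fl values. Ccl8 differed by 0.78 ± 0.32 on the log2 scale (adjusted p = 0.425 by limma).

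After MI, 0 genes were called higher (background 0.156%) and 0 lower (background 0.258%). At an unadjusted p under 0.05, 5 genes were higher in PKM2-/- hearts and 1 lower, where 3492 of all 20576 genes tested passed in either direction. DESeq2 called 1 gene, Cxcl1, and edgeR called 0. Scaling to total reads called Cxcl1 (adjusted p = 0.0200) and Cxcl5. Without the PKM2fl/fl MI library of replicate 3 limma called Cxcl5, Ccl9 (log2 1.23, adjusted p = 0.0070) and Ccl6 (1.08, adjusted p = 0.0147). The share of all genes called in these alternatives is not given here, so their calls do not set the family apart. The 3 PKM2-/- hearts lay above the 3 PKM2fl/fl hearts for 4 of the 41 genes (background 10.7%) and below them for 2, Ackr2 and Cxcr6 (background 8.26%). The count of 4 is close to the share of all genes and the count of 2 below it. The 4 genes were Cxcl1, Cxcl3, Cxcl5 and Cxcr2. Cxcl1 was 2.88-fold higher in PKM2-/- hearts (log2 1.52 ± 0.46 SE, adjusted p = 0.111 by limma). Over the alternatives its log2 difference was 1.27 to 1.89 and its adjusted p 0.0124 (DESeq2) to 0.354. Cxcl5 was 2.76-fold higher (1.47 ± 0.48 SE, adjusted p = 0.138 by limma), and it was called without the PKM2fl/fl MI library of replicate 3 (1.75, adjusted p = 0.0441) and with scaling to total reads (1.83), which shifted the median of all genes by 0.36. Cxcr2 was 2.44-fold higher (1.29 ± 0.52 SE, adjusted p = 0.226 by limma), Cxcl3 3.25-fold (1.70 ± 0.94, adjusted p = 0.377) and Cxcl2 2.78-fold with overlapping groups (1.48 ± 0.74, adjusted p = 0.325). The 4 ligands summed to 575, 383 and 829 normalized counts in PKM2fl/fl and to 1946, 1268 and 1750 in PKM2-/- MI hearts.

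Neutrophil genes were also higher in each PKM2-/- than in each PKM2fl/fl MI heart as a sum. S100a8 had 263, 134 and 281 normalized counts in PKM2fl/fl and 734, 506 and 749 in PKM2-/- MI hearts, and the summed level of the 7 genes of the list was 1198 to 2169 against 3401 to 4393. None of the 5 tested was called between the genotypes (S100a9 log2 1.78 ± 0.60 SE, adjusted p = 0.151 by limma). The sum of the resident macrophage genes was 4424 to 6557 normalized counts in PKM2fl/fl and 7288 to 10049 in PKM2-/- MI hearts, and that of the dendritic cell genes 1225 to 1501 and 932 to 1128, without overlap in either. Most of the first sum was Mrc1 (3184 to 4597 and 5228 to 7670), and most of the second was Zbtb46 (884 to 1213 and 713 to 858). Lyve1 and Cd209a did not overlap either, the other genes of both lists did, and 0 of either list were called. The PKM2-/- MI heart of replicate 1, high in erythroid genes, also had the highest Cxcl1, Cxcl2 and Cxcl3. Without it the log2 differences between the genotypes were 1.27 for Cxcl1 and 1.48 for Cxcl5 (adjusted p = 0.308 and 0.273 by limma). Summed cardiac muscle genes were 344492, 321225 and 143069 normalized counts in PKM2fl/fl MI hearts and 216645, 155991 and 150034 in PKM2-/- MI hearts. Without the PKM2fl/fl library of replicate 3, whose omission gave the calls of Cxcl5, Ccl9 and Ccl6, the sums did not overlap between the genotypes. The part of these cell genes in the differences between the genotypes was not tested. The CCR2 ligands summed to 1977, 1056 and 1330 normalized counts in PKM2fl/fl and 2271, 1407 and 1411 in PKM2-/- MI hearts, which overlapped, and Ccr2 did not differ beyond its error (log2 -0.03 ± 0.36 SE).

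The response to MI itself was compared between genotypes by the interaction term, and 0 genes were called in either direction (background 0% in each). DESeq2 and edgeR also called 0. An unadjusted p under 0.05 was reached by 1 gene of the family on each side and by 1703 of all 20576 genes tested. The smallest p were those of Ackr4 (log2 -0.66 ± 0.27 SE, adjusted p = 0.554 by limma), Ccl5 (1.64 ± 0.73, adjusted p = 0.58) and Cxcl1 (1.24 ± 0.65, adjusted p = 0.655). With scaling to total reads, which shifted the median of all genes in the interaction by 0.68, the value of Ackr4 was 0.03.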

How the data were processed

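RNA was extracted from left ventricles of 16 male mice, depleted of rRNA and sequenced as paired ends. Reads were trimmed with PRINSEQ, aligned to mm10 with HISAT2, counted with featureCounts and normalized with DESeq2 by the authors. The authors deposited a normalized signal for each gene and library, the read count divided by the size factor of the library. Whole reads were recovered from 100% of the values above 0 (within 0.01 read). The table also holds the authors' mean, log2 fold change, standard error, Wald statistic and p-values for the baseline comparison, which were not used, and 0 columns of libraries were left without a sample.

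The groups come from the sample labels. The genes, roles and marker lists were chosen with earlier results of these data known. Values were log2-transformed after 1 was added, and a single limma fit took all genes whose mean reached 10, run over all 16 libraries in 6 groups, with the trend option (limma 3.58.1, R 4.3.3). Calls needed a Benjamini-Hochberg adjusted p under 0.05 and a 2-fold change. Fold changes are on the log2(value + 1) scale. The fit was tested on simulated data. Nothing in the labels ties libraries of different groups to the same animal. Values in every library were given for up to 4 genes per role, chosen by call after MI and then by mean, and then for the 3 genes with the smallest p in each genotype comparison. Alternatives were total count and TMM scaling, DESeq2 1.42.0 and edgeR 4.0.16 on recovered reads, a pseudocount of 0.1, no filter, fits of the compared groups alone, the replicate number as a block, and each library left out. Of the genes tested, 1 is not reported here by name or in the plots, and it remains in the counts. Depth ranged from 20623769 to 71855101 reads per library. Exons and lengths come from GENCODE M39, promoters from RefSeq on GRCm38.p6.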

Additional observations from a re-analysis of the deposited data

How the results depend on the processing

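Calls among the 41 genes after MI numbered 21 in PKM2fl/fl hearts (20 to 28 over the other settings, 19 to 22 when a library was left out) and 24 in PKM2-/- hearts (23 to 29, and 22 to 24). After MI, 0 genes differed between genotypes, but 2 did with total count scaling, 1 with DESeq2, and 0 to 3 when a library was left out (3 without the PKM2fl/fl MI library of replicate 3). How many of all genes tested these settings called is not given here. At baseline, after sham and in the interaction the count was 0 under every alternative, each library left out included. Sham against baseline gave 2 calls in PKM2fl/fl hearts. It gave 4 with total count scaling, 8 with DESeq2, 1 with edgeR, 0 when only the compared groups were fitted, 1 with the replicate block, and 0 to 6 when a library was left out. In PKM2-/- hearts it gave 8, with 5 under no filter and 5 with edgeR, and 4 to 7 when a library was left out. Where a baseline library is left out, the remaining one is assumed to vary like the other groups. Directions turned for Ackr2 at baseline (-0.14) and for the interaction of Ackr4 (0.032), both with total count scaling, which moved the median of all genes by -0.58 and 0.68. That scaling moved the median by -0.17 and 0.51 for MI against sham in PKM2fl/fl and PKM2-/- hearts. Deviations of same-numbered libraries from their group means had 36 correlations between -0.20 and 0.13, and those of differently numbered libraries -0.20 to 0.20. Within groups of 2 or 3 such deviations sum to 0, so this check cannot decide whether equal numbers share an animal or a batch. With the replicate block, MI against sham gave 21 and 23 calls. The cause of these differences was not tested. The 16 genes under the minimum mean have few reads and were tested only in some alternatives, such as that without the filter.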

Other observations

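Part of the genes around the family rose after MI. Of 20 genes that carry the signal of chemokine receptors, such as Gnai2, Gnb1 and Elmo1, 12 rose in PKM2fl/fl and 12 in PKM2-/- hearts and 0 fell in either (12.4% and 14.5% of all genes tested rose). The 4 with the highest means, Gnai2, Elmo1, Gnb1 and Stat3, were not among those called, with log2 fold changes of 0.74, 0.82, 0.72 and 0.19 in PKM2fl/fl hearts. Between the genotypes after MI, 0 of the 20 were called. Of 18 genes that induce chemokines or read out their induction, 14 were tested and 3 rose in both genotypes. They were Il1b, Tnf and Il6, named after their values were seen. Il6 was at most 47.5 normalized counts in the 10 baseline and sham hearts and 113 to 606 after MI. The 4 with the highest means, Nfkb1, Tlr4, Nfkbia and Rela, were not called. Nfkbia, a target and inhibitor of NF-kappaB, had 570 to 980 normalized counts in PKM2fl/fl and 1153 to 1882 in PKM2-/- MI hearts (log2 0.93 ± 0.23 SE, adjusted p = 0.0659 by limma).

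Chemokine genes whose symbols fall outside the selection included Ppbp and Pf4, the platelet chemokines CXCL7 and CXCL4. Of 10 such genes, 5 were tested, and 2 rose and 1 fell after MI in each genotype. Pf4 had 148 to 224 normalized counts in PKM2fl/fl sham and 872 to 1150 in PKM2fl/fl MI hearts, and 185 to 265 in PKM2-/- sham and 1428 to 2236 in PKM2-/- MI hearts (log2 2.43, adjusted p = 2.35e-07, and 2.93, adjusted p = 4.03e-08 by limma). Ppbp rose by 3.19 and 4.21. The gene that fell was Ccl27a, named after its values were seen (-1.08 and -1.34). The 3 PKM2-/- MI hearts lay above the 3 PKM2fl/fl MI hearts for both, and neither difference was called (Pf4 0.76 ± 0.19 SE, adjusted p = 0.0664 by limma).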
